A study of Mus musculus with 16 samples.

Results

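Protein kinase C (PKC) is a family of serine/threonine kinases that respond to lipid messengers at the membrane. The 8 PKC genes examined here were Prkca, Prkcb, Prkcd, Prkce, Prkch, Prkcq, Prkci and Prkcz, taken by gene symbol from both expression tables, 1 row per gene in each table, so that 8 of 21011 genes in skeletal muscle and 8 of 38933 genes in cortical bone were followed. When a receptor activates phospholipase C, the membrane lipid PIP2 is split into inositol trisphosphate, which releases calcium, and diacylglycerol, which stays in the membrane. The conventional isoforms PKCα (Prkca) and PKCβ (Prkcb) need both calcium and diacylglycerol. The diacylglycerol-only isoforms PKCδ (Prkcd), PKCε (Prkce), PKCη (Prkch) and PKCθ (Prkcq) need diacylglycerol but not calcium, and the atypical isoforms PKCι (Prkci) and PKCζ (Prkcz) need neither and are recruited by scaffold proteins. PKCθ is known as the isoform abundant in skeletal muscle and in T cells, and PKCβ as one of lymphoid and myeloid cells.

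The mice were female C57BL/6 from the National Institute on Aging colony, 18 months old at the start of dosing. Treated mice received BAY2416964 (BAY), an antagonist of the aryl hydrocarbon receptor (AhR, a ligand-activated transcription factor), by oral gavage over 8 weeks, with 5 doses of 30 mg/kg in each week. Control mice received the vehicle (VEH). All of the mice, VEH included, were also injected with calcein, a bone label. RNA was sequenced from 1 tibialis anterior muscle per mouse and from cortical bone shafts that had been digested with collagenase after the marrow was taken, with 4 mice per group in each tissue and 16 libraries in all.

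The libraries differed in depth and in what they held. Reads counted on genes ran from 6131955 to 9262379 in muscle and from 930307 to 6951893 in bone. Skeletal muscle fibre markers summed to between 118053 and 196627 CPM (counts scaled to the reads on genes of each library) in the muscle libraries. In bone, osteoblast and osteocyte markers summed to between 1582 and 31523 CPM, and they were exceeded by muscle fibre markers in VEH replicate 1, BAY replicate 1 and BAY replicate 2, which held 10151, 38882 and 42168 CPM of muscle fibre markers against 7500, 2050 and 1790 CPM of bone markers. Olfactory receptor genes, which are not known as products of bone cells, had 0.130 CPM per kb of exons in bone VEH replicate 1 and between 1.395 and 8.99 CPM per kb in the other bone libraries, against 0.00491 to 0.00708 CPM per kb in muscle. The levels of the PKC genes in bone are therefore given beside this value. How much of the reads counted on PKC genes in bone shares the origin of those on olfactory receptor genes was not tested, and the bone levels, shares and orders below hold only within that limit. In whole-tissue RNA, fewer cells of a type and less RNA per cell cannot be told apart.

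In skeletal muscle, Prkca and Prkcq carried most of the PKC message. Prkca, on chromosome 11 at 107824213-108234755 on the minus strand (mm39), was measured in the VEH muscles at 75.5, 96.6, 91.3 and 72.4 CPM and in the BAY muscles at 85.2, 91.8, 83.7 and 70.8 CPM. The BAY values lay inside the range of the VEH values except for the lowest one. Prkcq, on chromosome 2 at 11176919-11306034 on the plus strand, was at 56.8, 62.7, 66.9 and 51.7 CPM in VEH and at 59.9, 53.3, 53.0 and 74.3 CPM in BAY. One BAY muscle, replicate 4, was above all the VEH muscles, and the other 3 lay within their range.

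Prkce, whose kinase is known for roles in muscle and heart signaling, followed at 15.4, 26.5, 23.1 and 19.9 CPM in VEH and 20.4, 22.0, 19.9 and 19.6 CPM in BAY. The 4 BAY values for Prkce were closer together (SD 1.04, n = 4) than the VEH values (SD 4.73, n = 4). Prkch was measured at 7.33, 11.9, 8.21 and 10.5 CPM in VEH and at 13.5, 10.3, 10.97 and 9.12 CPM in BAY, with a single BAY muscle above the VEH range. Prkcd, which encodes a kinase tied to cell death and to reactive oxygen species, ranged from 2.98 to 4.89 CPM in VEH and from 2.45 to 4.52 CPM in BAY, on 15 to 45 reads per library.

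The atypical isoforms were low in muscle. Prkci, a partner of the Par3 and Par6 polarity proteins, had 2.68 to 4.97 CPM in VEH and 1.96 to 3.85 CPM in BAY, on 12 to 46 reads. Prkcz had 2.04, 4.36, 3.90 and 1.79 CPM in VEH and 3.03, 1.36, 3.35 and 5.96 CPM in BAY, on 8.3 to 42.5 reads, and both its lowest and its highest library were BAY muscles. Recovered reads of Prkcz and Prkce were not whole in every library, and the source of the fractions was not tested.

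Prkcb was at the limit of detection in muscle. Its reads numbered 2, 2, 6 and 1 in the VEH libraries and 0, 1, 6 and 3 in the BAY libraries, in total 11 in VEH and 10 in BAY. In 6 of the 8 libraries there were 3 reads or fewer, the limit that a count of 0 allows, so its fold change is not read as a measurement. The PKCβ message was thus not measurable at this depth in most of the muscles, in the same libraries that held 505 to 846 reads of Prkca, the other conventional isoform.

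**Figure D1:**
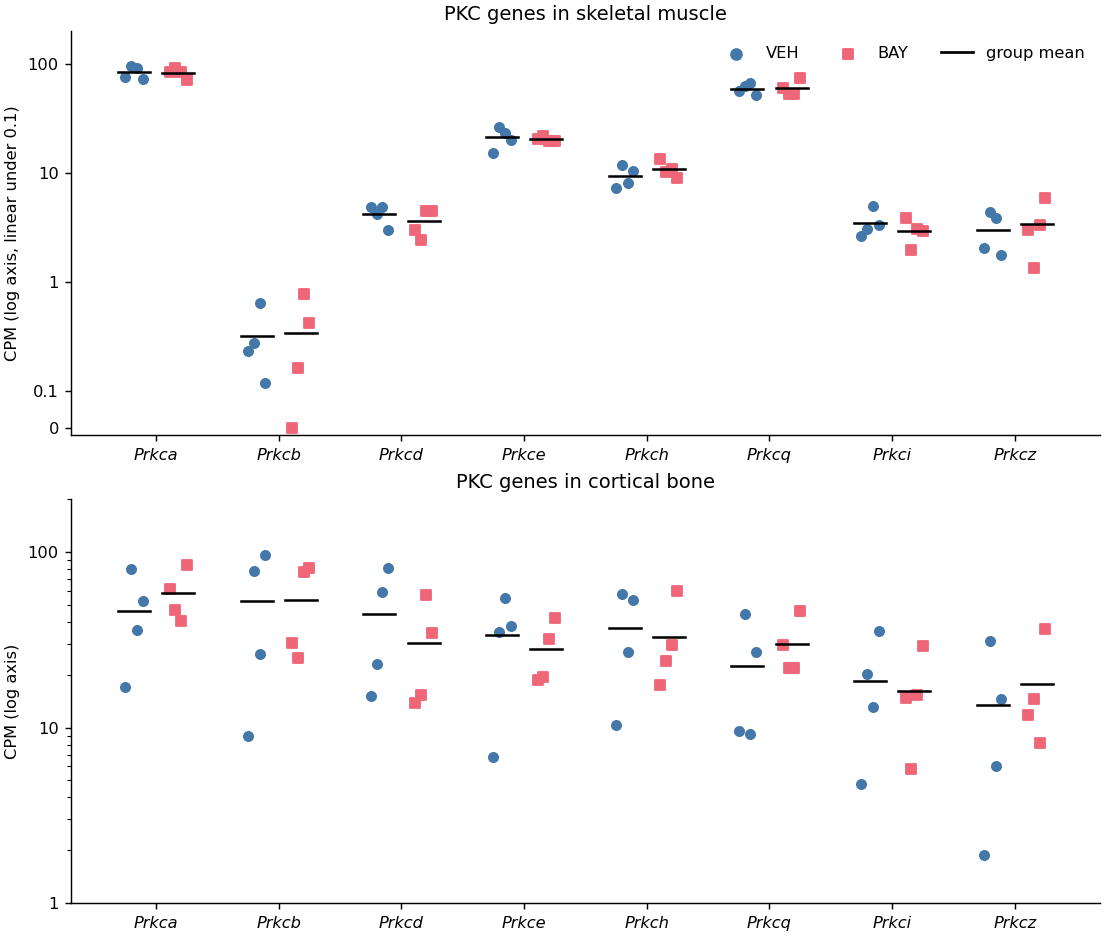
CPM of each PKC gene in every library of skeletal muscle (top) and cortical bone (bottom), with VEH as circles, BAY as squares and the group mean as a line. Both axes are logarithmic, except that the muscle axis is linear close to 0. In muscle the genes separate into levels, from Prkcb at 0 to 0.774 CPM up to Prkca at 70.8 to 96.6 CPM, whereas in bone the libraries of 1 gene spread as widely as the genes do.

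Levels of different genes are comparable only per length of transcript, and the choice of length decided which isoform stood first. Dividing by the union of annotated exons (10.5 kb for Prkca and 8.02 kb for Prkcq) gave 7.97 ± 0.922 CPM per kb for Prkca and 7.46 ± 0.981 CPM per kb for Prkcq (SD, n = 8). Prkca was the higher in 7 of 8 muscles, although the ranges of 6.76 to 9.23 and 6.44 to 9.26 CPM per kb overlapped. Dividing by the Ensembl canonical transcript alone (8.72 kb and 3.59 kb) put Prkcq at 16.7 ± 2.19 and Prkca at 9.57 ± 1.11 CPM per kb (SD, n = 8), with Prkcq the higher in 8 of 8. Which of the transcripts the muscles used was not measured, so the order of these 2 genes is not settled by the tables.

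Below these 2, Prkce came next at 2.62 ± 0.402 CPM per kb of union exons and then Prkch at 1.11 ± 0.217 (SD, n = 8), and each exceeded the next gene in 8 of 8 muscles. With canonical lengths both kept their places and Prkce exceeded Prkch in 7 of 8. Prkci (0.542 ± 0.148), Prkcz (0.499 ± 0.236) and Prkcd (0.346 ± 0.0843 CPM per kb) had overlapping ranges by union exons. By canonical length Prkcd came after Prkch, at 1.41 ± 0.344 CPM per kb, above Prkcz in 8 of 8 muscles, while Prkci and Prkcz still overlapped. Prkcb was last by either length.

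Taken as shares of the summed CPM per kb of the 8 genes, the classes of PKC in muscle differed between VEH and BAY by less than they did among mice. By union exons the conventional class held 39.04 ± 0.782% in VEH and 38.8 ± 5.05% in BAY, the diacylglycerol-only class 55.9 ± 0.965% and 56.3 ± 3.64%, and the atypical class 5.06 ± 0.912% and 4.96 ± 1.65% (SD, n = 4). In BAY replicate 4 the conventional share was 31.9% and the diacylglycerol-only share 61.5%, with Prkcq at 43.4% and Prkca at 31.7%. The conventional share also spread among the other BAY muscles, from 38.7% to 43.8%, and the atypical share was lowest in BAY replicate 2, at 2.68%. BAY replicate 4 also had the highest muscle fibre marker sum, 196627 CPM against at most 147830 CPM in the other 7, and the part of this in the shares was not tested. By canonical length the diacylglycerol-only class held 68.0 ± 1.12% in VEH and 68.2 ± 3.28% in BAY, and the conventional class held 27.9 ± 0.646% and 27.8 ± 4.38%. The difference between the groups was smaller than the SD within either group for each class and each length.

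**Figure D2:**
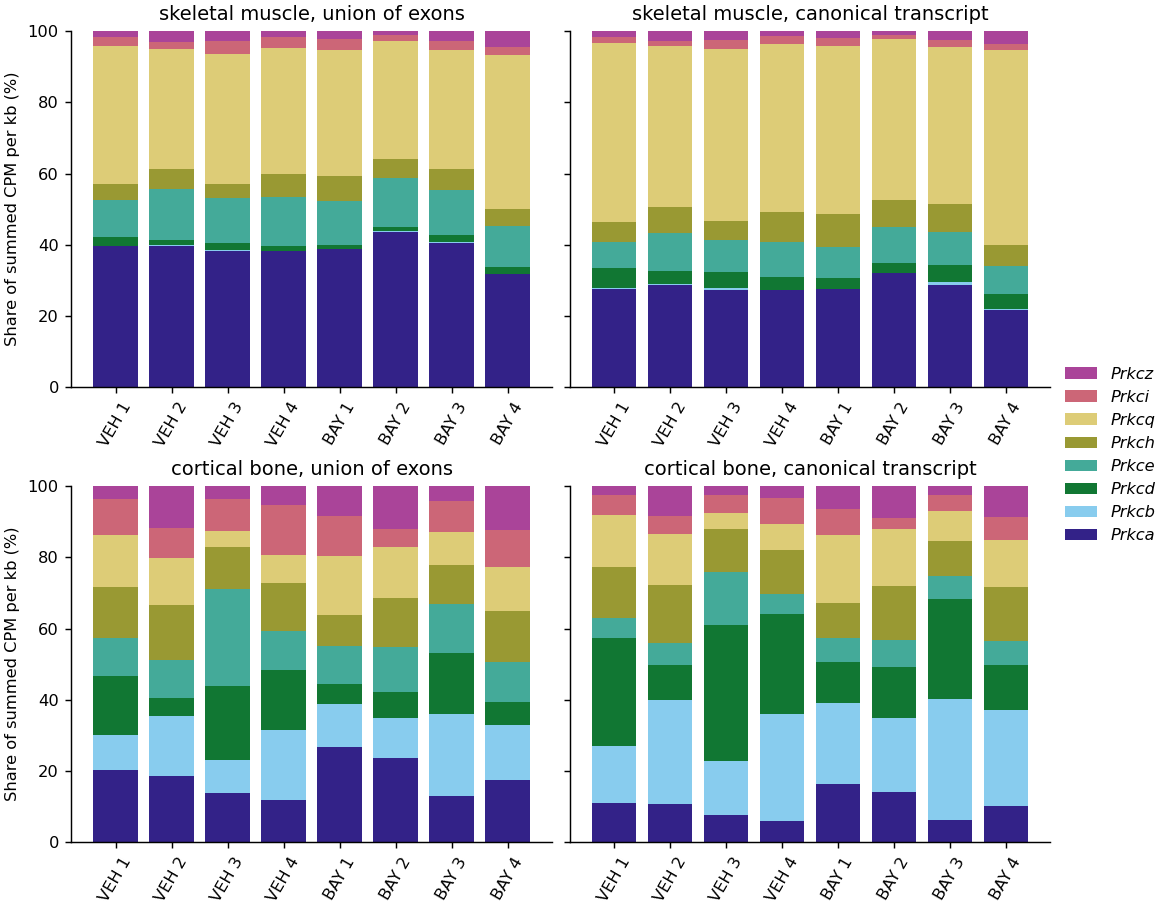
Share of each PKC gene in the summed CPM per kb of the 8 genes, 1 bar per library, for skeletal muscle (top) and cortical bone (bottom), with lengths from the union of exons (left) or the canonical transcript (right). Prkca and Prkcq fill most of every muscle bar, and Prkcq grows at the expense of Prkca with canonical lengths. The bone bars differ from library to library, with the widest Prkcd segment in VEH replicate 3 at 20.8% and 38.3%.

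In cortical bone all 8 genes were counted in every library, on 13 to 167 reads per gene and library, but the levels spread widely within each group. Prkca was measured at 17.0, 80.1, 36.1 and 52.4 CPM in VEH and at 61.2, 46.7, 40.2 and 84.9 CPM in BAY. Prkcb was at 8.92, 78.3, 26.2 and 96.8 CPM in VEH and at 30.4, 24.8, 77.4 and 80.6 CPM in BAY, a range of 10.9 times within VEH. For 7 of the 8 genes, all but Prkcq, the lowest of the 4 VEH libraries was replicate 1, which was also the library with the lowest olfactory receptor level.

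Per kb of union exons, most PKC levels in bone lay near the olfactory receptor level of the same library. Prkca was 12.5 times that level in VEH replicate 1 and between 0.867 and 2.47 times in the other 7 libraries. Prkcq was 9.10 times in VEH replicate 1 and between 0.582 and 1.19 times elsewhere. Prkcz was 2.23 times in VEH replicate 1 and below the olfactory receptor level, at 0.391 to 0.861 times, in each of the other 7. In VEH replicate 1 all 8 genes were above it, by 2.23 to 12.5 times.

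The number of bone libraries in which a gene exceeded the olfactory receptor level depended on the length used. By union exons it was 6 of 8 for Prkca, 4 of 8 for Prkcb, Prkcd, Prkch and Prkcq, 3 of 8 for Prkce and Prkci, and 1 of 8 for Prkcz. By canonical length, Prkcb, Prkcd, Prkch and Prkcq exceeded it in 8 of 8, Prkca in 7, Prkce and Prkci in 4 and Prkcz in 2. Single olfactory receptor genes spread widely around their mean, and by union exons few PKC levels exceeded 95% of them. This was so in 2 of 8 libraries for Prkca, Prkcb, Prkcd and Prkce, in 1 of 8 for Prkch, Prkcq and Prkci, and in none for Prkcz. The union of exons was much longer than the canonical transcript for Prkcb (11.4 against 3.11 kb) and for Prkcd (11.3 against 2.78 kb). By canonical length Prkcb had the highest mean level in bone, 17.0 ± 10.8 CPM per kb (SD, n = 8), followed by Prkcd at 13.4 ± 9.11, whereas by union exons Prkca was first at 4.998 ± 2.17 and Prkcb second at 4.65 ± 2.95 CPM per kb. No gene exceeded the next one in all 8 libraries by either length, so no order among neighbours held in bone.

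**Figure D3:**
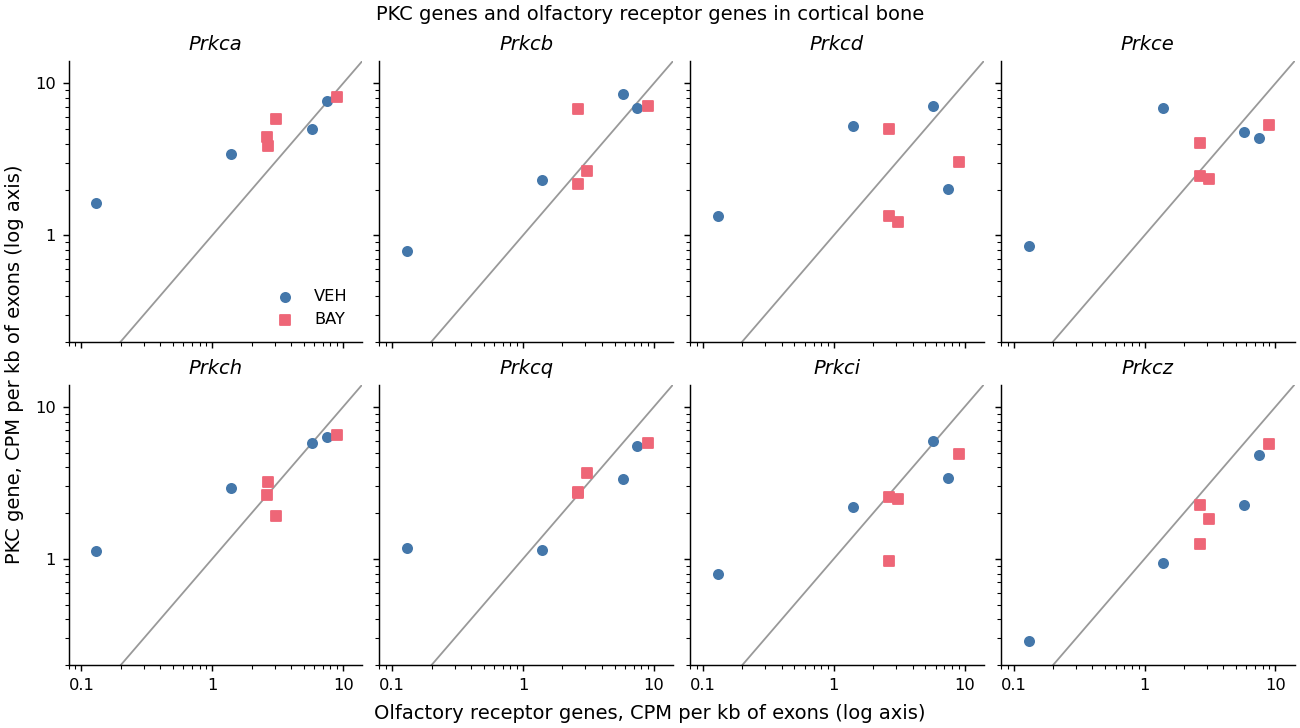
CPM per kb of union exons of each PKC gene (vertical) against that of the olfactory receptor genes (horizontal) in the 8 cortical bone libraries, both on log axes, with VEH as circles, BAY as squares and a line at equal levels. VEH replicate 1, at the far left with 0.130 CPM per kb on the horizontal axis, lies above the line in all 8 panels. The Prkcz points of the other 7 libraries lie below the line.

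Prkcd divided the bone libraries into a set above and a set below the olfactory receptor level. Its level per kb of union exons was 10.2, 0.272, 3.74 and 1.23 times the olfactory receptor level in VEH and 0.395, 0.513, 1.90 and 0.337 times in BAY. The 4 libraries above that level were VEH replicates 1, 3 and 4 and BAY replicate 3, and they were also the 4 with the highest osteoblast and osteocyte marker sums, 7500, 31523, 23074 and 23361 CPM against 1582 to 2431 CPM in the other 4. By canonical length the same 4 libraries led, at 39.8, 14.5, 4.79 and 7.37 times against 1.05 to 1.99 times. The 12 bone markers, the 8 osteoclast markers and the 8 neutrophil markers were detected in every bone library, with osteoclast sums of 255, 799, 1072 and 1102 CPM and neutrophil sums of 211, 532, 2094 and 1192 CPM in those 4, against at most 254 and 204 CPM in the other 4. Prkcb and Prkch were above the olfactory receptor level in the same 4 libraries, Prkcb at 6.02, 1.65, 1.47 and 2.56 times against 0.787 to 0.920 times in the other 4. For Prkch the ratios were 8.70, 2.11, 1.005 and 1.22 against 0.615 to 0.995, so that its sets nearly met. The part of these cell types in the levels of the 3 genes was not tested.

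Prkcq and Prkcb are known from lymphocytes, and Prkcq also from muscle, so their bone levels are set beside those markers. T cell markers summed to between 3.74 and 205 CPM in bone and were lowest in VEH replicate 1, with 2 of 8 markers at 0 there and none at 0 elsewhere. B cell markers, among which 1 of 8 was at 0 in VEH replicate 1, summed to between 23.4 and 283 CPM. The 4 libraries with the highest Prkcb CPM, VEH replicates 2 and 4 and BAY replicates 3 and 4, were those with the highest B cell marker sums, 258, 223, 201 and 283 CPM against at most 138 CPM, although as a ratio to the olfactory receptor level Prkcb led in another set of 4, given above. Prkcq was measured at 9.49, 44.2, 9.21 and 26.9 CPM in the VEH bones and at 29.5, 21.9, 21.9 and 46.2 CPM in the BAY bones. It was highest in VEH replicate 2 and BAY replicate 4, the 2 libraries with the highest olfactory receptor level and also the highest T cell marker sums, 180 and 205 CPM against at most 116 CPM elsewhere. Taken as a ratio to the olfactory receptor level, it was instead highest in VEH replicate 1 (9.10) and BAY replicates 1, 2 and 3 (1.19, 1.04 and 1.03), against 0.582 to 0.823 in the other 4. These 4 were the libraries with the highest muscle fibre marker sums, 10151, 38882, 42168 and 1473 CPM against 51.0 to 271 CPM, and by canonical length the same 4 led, at 19.4, 2.53, 2.21 and 2.19 times against 1.24 to 1.75 times. By union exons, the share of Prkca among the 8 genes was highest in VEH replicate 1 (20.3%) and BAY replicates 1 and 2 (26.6% and 23.5%). In these libraries muscle fibre markers exceeded bone markers, and elsewhere the share was 11.7% to 18.6%. The part of B cells in the bone Prkcb level, of T cells or muscle RNA in that of Prkcq, and of muscle RNA in that of Prkca, was not tested.

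None of the 8 PKC genes was called changed by BAY in skeletal muscle. A call needed an unadjusted P under 0.05 in limma and a fold change of at least 2, the thresholds of the study. It was met by 2.43% of all genes tested in muscle. The study applied those thresholds to limma-voom, a fit that called 700 of the 21011 genes here on recovered reads. No PKC gene reached an unadjusted P under 0.05 either, which 9.79% of all genes did, and limma-voom on recovered reads also called 0 PKC genes. The VEH and BAY values overlapped for each of the 8 genes, whereas the groups did not overlap for 5.73% of all genes. After Benjamini-Hochberg adjustment no gene of the muscle table was under 0.05, the smallest adjusted P being 0.184. There were 25 such genes by limma-voom on recovered reads, 35 with an offset of 0.1 and 23 with an offset of 1, no PKC gene among them.

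The intervals show how large a change the muscle data still allowed. The log2 fold change of BAY against VEH was -0.01 for Prkca (SE 0.13, limma adjusted P = 0.997), with a 95% interval from 0.813 to 1.21 times the VEH level. For Prkcq it was 0.01 (SE 0.14, limma adjusted P = 0.998), with an interval from 0.819 to 1.23 times. The 2 leading messages thus had the narrowest intervals of the 8 genes. The interval for Prkce ran from 0.771 to 1.25 times and that for Prkch from 0.874 to 1.56 times.

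The low isoforms allowed more. The 95% interval was 0.554 to 1.28 times the VEH level for Prkcd, 0.538 to 1.32 times for Prkci and 0.557 to 2.06 times for Prkcz. A doubling of Prkcz was therefore within its interval, on the lowest read counts of these 3 genes. The exact permutation test over the 70 ways of assigning 4 of 8 mice, whose smallest two-sided P is 0.0286, gave P = 0.943 for Prkca, 1 for Prkcq, 0.314 for Prkch and 0.371 for Prkcd. Per gene the BAY muscles were neither all above nor all below the VEH muscles.

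None of the 8 genes was called in cortical bone, where 0.64% of all genes were, and none reached an unadjusted P under 0.05, which again 0.64% of all genes did. The groups overlapped for all 8 genes and were separate for 0.406% of all genes. The log2 fold changes ran from -0.50 for Prkcd (SE 0.72) and -0.06 for Prkci (SE 0.82) to 0.66 for Prkcq (SE 0.69) and 0.83 for Prkcz (SE 0.95), each with a limma adjusted P of at least 0.887. The SE in bone was between 0.60 and 0.95, against 0.13 to 0.44 for the 7 members above the detection limit in muscle. Limma-voom on recovered reads, the kind of fit the study named, also called 0 PKC genes in bone. It called 1433 of the 38933 genes there.

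These bone values have to be read against the whole table, in which the median log2 fold change was 0.84 over all genes, and centring each library on its median removed that shift and turned Prkca, Prkcb, Prkce, Prkcq and Prkcz to the lower side. All 8 members were below that median. The median of the 8 was 0.18. Direction in bone is accordingly not given for any PKC gene. Muscle fibre markers also differed between the bone groups, from 51.0 to 10151 CPM in VEH and from 107 to 42168 CPM in BAY. Their part in these fold changes was not tested. The 95% interval for Prkca ran from 0.569 to 3.43 times the VEH level, and that for Prkcb from 0.392 to 4.16 times, so that a doubling of either was within it and a halving was within that of Prkcb. The exact permutation P was 0.457 for Prkca, 0.857 for Prkcb, 0.514 for Prkcd and 0.314 for Prkcq.

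**Figure D4:**
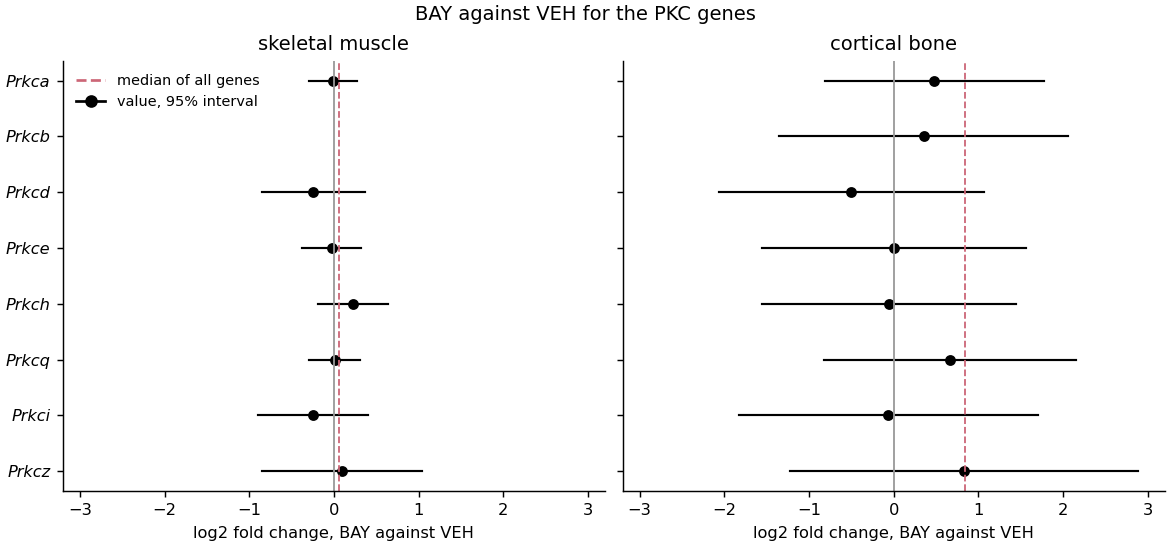
Log2 fold change of BAY against VEH for each PKC gene in skeletal muscle (left, Prkcb left out because it is at the detection limit) and cortical bone (right). Points are the fitted values, bars the 95% intervals and the dashed line the median of all genes in that tissue (0.06 and 0.84). Every interval crosses 0, and those of bone are wider.

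Leaving out bone VEH replicate 1 moved several bone values. Without it, the log2 fold changes of Prkcb and Prkce were on the lower side, and that of Prkcz was 0.10 in place of 0.83. Without VEH replicate 2 the value for Prkcz was 1.46. No PKC gene was called without it, and none was called when any other single library was left out of either tissue.

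The genes around PKC were followed in 8 lists: enzymes that make diacylglycerol (phospholipase C), enzymes that remove or reshape it (diacylglycerol kinases and lipases), inositol trisphosphate receptors, kinases, phosphatases and chaperones that prime or silence PKC, anchors and scaffolds, substrates, other diacylglycerol receptors, and the PKC-related kinases. In skeletal muscle 65 of 69 listed genes were measured. None was called in either direction, since no fold change reached 2 together with an unadjusted P under 0.05. By P alone, 14 of 65 were higher in BAY and 0 were lower, where 6.71% of all genes were higher and 3.07% lower. The groups did not overlap for 11 of 65, in each case with BAY the higher, where they did not overlap for 5.73% of all genes, and the median log2 fold change was 0.23 against 0.06 over all genes. No adjusted P was under 0.05 for any of them, and the lowest was 0.275.

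The 7 genes with the lowest P in this set were singled out after their values were seen. Prkd2, which encodes protein kinase D2, a kinase that PKC phosphorylates and activates, was at 5.12, 7.53, 5.29 and 5.25 CPM in VEH and at 12.1, 8.97, 8.90 and 12.2 CPM in BAY. Its BAY values were all above its VEH values, with a log2 fold change of 0.87 (SE 0.20, limma adjusted P = 0.275). Dgkz, a diacylglycerol kinase that turns diacylglycerol into phosphatidic acid and so ends its signal, was at 81.3, 119.7, 52.4 and 90.6 CPM in VEH and at 162, 123, 147 and 134 CPM in BAY. Its groups did not overlap either, and its log2 fold change was 0.77 (SE 0.20, limma adjusted P = 0.295).

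Phlpp1, a phosphatase that removes the phosphate PKC needs for its stability, was at 12.5, 18.1, 19.8 and 17.5 CPM in VEH and at 25.3, 24.1, 25.3 and 28.6 CPM in BAY (log2 fold change 0.62, SE 0.15, limma adjusted P = 0.278). Plcg1, the phospholipase C that receptor tyrosine kinases activate, was at 26.3, 34.4, 33.9 and 30.5 CPM in VEH and at 43.8, 39.1, 39.3 and 45.9 CPM in BAY (log2 fold change 0.43, SE 0.13, limma adjusted P = 0.319). In both the lowest BAY muscle was above the highest VEH muscle. Dgkq, another diacylglycerol kinase, had non-overlapping groups and a log2 fold change of 0.78 (SE 0.22). Rasgrp2 and Unc13b, both with a zinc-finger domain of the kind with which PKC binds diacylglycerol, had non-overlapping groups and log2 fold changes of 0.61 (SE 0.18) and 0.76 (SE 0.21).

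By list, an unadjusted P under 0.05 with the higher value in BAY was reached by 4 of 11 phospholipase C genes, 2 of 10 diacylglycerol kinases and lipases, 1 of 3 inositol trisphosphate receptors, 1 of 10 priming genes, 1 of 10 anchors, 1 of 10 substrates, 2 of 8 other diacylglycerol receptors and 2 of 3 PKC-related kinases. The medians ran from -0.01 for the priming kinases and phosphatases to 0.45 for the other diacylglycerol receptors. Adipocyte markers, at 377 CPM in muscle VEH replicate 3 and 38.6 to 56.6 CPM in the other 7 muscles, set that library apart, as did osteoblast and osteocyte markers, at 161 CPM there and 33.8 to 56.8 CPM elsewhere. Endothelial markers, all 8 detected in every muscle, summed to 200, 216, 229 and 230 CPM in VEH and to 248, 230, 277 and 230 CPM in BAY. Without VEH replicate 3, 16 of the 65 genes were higher and 0 lower by P alone, and without VEH replicate 1 the counts were 9 and 0. Over all genes, 2056 had such a P in either direction, 2058 without VEH replicate 3 and 1475 without VEH replicate 1. The part of these cell types in the counts was not tested.

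**Figure D5:**
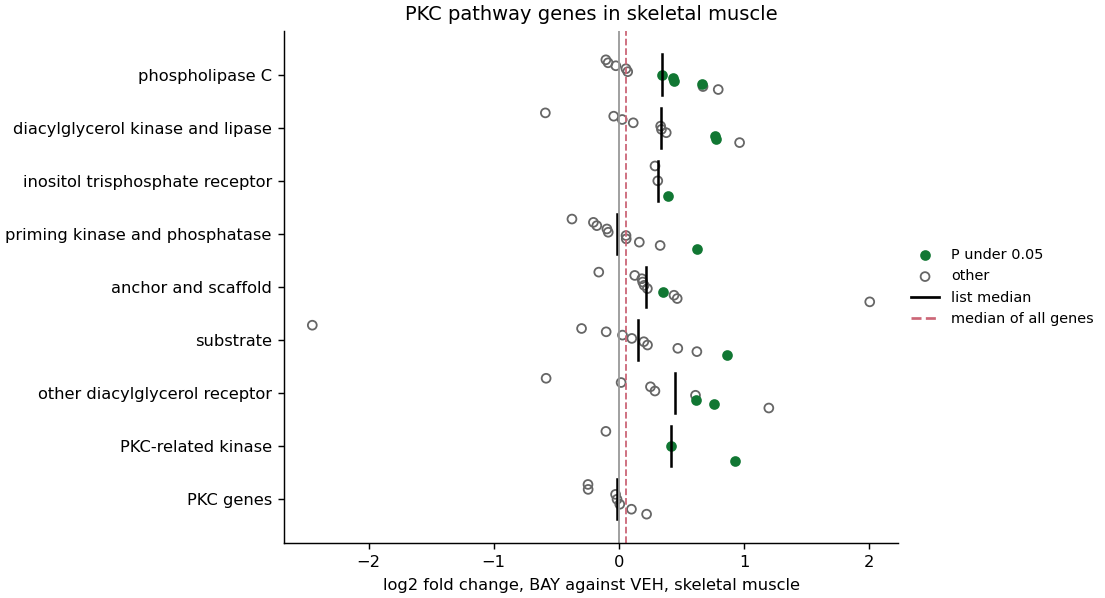
Log2 fold change of BAY against VEH in skeletal muscle for the measured genes of the 8 PKC pathway lists and for 7 PKC genes (Prkcb left out). Filled points have an unadjusted limma P under 0.05, short lines are the list medians and the dashed line is the median of all genes (0.06). All 14 filled points lie to the right of 0, and the PKC genes lie between -0.25 and 0.22.

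In cortical bone 69 of 69 listed genes were measured, 0 were called and 0 had an unadjusted P under 0.05, the smallest being 0.251, while limma-voom on recovered reads gave 1. The median log2 fold change of the lists was 0.16, below the 0.84 of all genes.

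The genes that varied most like a PKC gene were found by the root mean square difference of log2 values, each gene centred on its own mean, over the 8 libraries of a tissue. In muscle, among 5281 protein-coding genes averaging 10 CPM or more, those closest to Prkcq were Snrnp200 (0.05), Polr2e (0.05), Abcf1 (0.07), Ccdc91 (0.07) and Anapc5 (0.07), where the median gene was at 0.25. Those closest to Prkca were Ldb3 (0.06), Zdhhc3 (0.06), Sypl2 (0.07), Dnajb2 (0.07) and Castor2 (0.07). In bone the closest to Prkcq were Atl2 (0.12), Rph3al (0.15), Chtf18 (0.16), Eid2 (0.18) and Serinc5 (0.19), against a median of 0.81 over 13155 genes. The closest to Prkca in bone were Zxdc (0.10), Nfatc2ip (0.12), Kremen1 (0.13), Isca1 (0.14) and Wiz (0.14). No gene was on the list of both tissues, and the libraries of a tissue share their scaling, so the likeness is a description.

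Because BAY acts on AhR, the letters GCGTG, the core of the element that AhR binds with its partner ARNT, were searched on both strands of RefSeq promoter windows, 250 bases before to 50 after a transcript start (build GRCm38.p6). They were present in 32.4% of all 32851 windows and in 6 of the 9 windows of the members, since a gene can have several. They were in the single windows of Prkca, Prkcq and Prkci, in 1 of 2 of Prkcd and in 2 of 3 of Prkcz, and were not found in that of Prkcb. Prkce and Prkch had no window in that table. The longer form TNGCGTG was in 5.07% of windows and, among the members, in that of Prkca only. The matches of the 2 genes with the highest muscle levels are shown because these are the messages whose response was measured most precisely. Coordinates are from an exact match of the window to the genome GRCm39, bases are 5′ to 3′ on the strand of the gene, and capitals mark the match.
Prkca, chr11:108234905-108234929, minus strand: cccccagtctGCGTGtccagctctg
Prkca, chr11:108234812-108234836, minus strand: ccgcgcgcgcGCGTGcacacataca
Prkca, chr11:108234797-108234821, minus strand, match on the other strand: cacacatacaCACGCtagctctccg
Prkca, chr11:108234695-108234719, minus strand: ctgtcagtgaGCGTGgggccagcca
Prkcq, chr2:11177054-11177078, plus strand: ggccagtgagGCGTGaggatggagg
Prkcq, chr2:11177141-11177165, plus strand: ccctgagccgGCGTGgcgagcgccc
Relative to the RefSeq start, the Prkca matches began 205, 112 and 97 bases upstream and 5 bases downstream, and the Prkcq matches 129 and 42 bases upstream. In GENCODE M39 all 6 fall in exons outside the coding sequence. For Prkca that release has a transcript that starts further upstream than the gene limits of the expression tables given above, and 3 of its 4 matches lie beyond those limits. Such a match describes letters in a window and no binding was measured. Neither gene was called changed in muscle or bone.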

How the data were processed

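RNA-seq of tibialis anterior and cortical bone from VEH- and BAY-treated mice (n = 4 per group and tissue) was re-analyzed from 2 tables. The deposited values were log2 of CPM plus an offset (0.0004 in muscle, 0.0001 in bone). To make them, the authors aligned trimmed reads to mm39 with STAR 2.7.8a and quantified Ensembl release 104 genes with the E/M method of Partek. Bone RNA was isolated with TRIzol and muscle RNA with a Maxwell kit. The methods describe stranded, poly(A)-selected libraries right after the muscle extraction, and whether that covers bone is not said outright. The tables were normalized separately, so no test was made between tissues. The column of muscle VEH replicate 3 is marked as a replacement.

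CPM was recovered by removing the offset, and reads from the CPM value of 1 read. Of low values (to 50 reads), 81.4% to 88.5% were whole within 0.02 reads. Counts cover counting error only, and a count of 0 allows up to 3 reads. limma 3.58.1 (R 4.3.3) with a trended prior was fitted to all genes of each table. It used the VEH and BAY libraries of that tissue only, with no covariates. A call was an unadjusted P under 0.05 with a fold change of at least 2, the thresholds of the study, which used limma-voom. Exact permutation tests were two-sided. The fits were tested on simulated data. Lengths, the 1193 olfactory receptor genes and exon features came from GENCODE M39. Prkca, Prkcd, Prkce, Prkch and Prkcq share exonic bases with other annotated genes, so their counts are uncertain there.

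All 8 PKC genes are named. Pathway genes were to be named where called, at most 3 per list, and 5 genes most like a member. The members, lists and tests were chosen with earlier results of these data known. Alternatives were other offsets (1 and 0.1), a minimum mean level of 1 CPM, median centring, voom on recovered reads, array weights, a replicate block, each library left out and, in bone, subtraction of the olfactory receptor level. Subtraction with canonical lengths, and the counts of pathway genes under the alternatives, were added after seeing the data. Replicate numbers belong to different mice: same-numbered deviations from the group means correlated across genes at -0.07, -0.10, 0.03 and -0.03 in muscle and 0.07, -0.05, 0.37 and 0.30 in bone, so the numbers were not taken as pairs. Gene sequences other than promoter windows were not used here.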

Additional observations from a re-analysis of the deposited data

How the results depend on the processing

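No PKC gene was called under any of the 15 alternatives in skeletal muscle or the 17 in cortical bone, and none had an unadjusted P under 0.05 in any of them. Several log2 fold changes turned sign, those that were not close to 0 included (Prkcb in muscle at -1.97, and Prkcz, Prkcq and Prkca in bone at 0.83, 0.66 and 0.48). In muscle these were Prkcb with an offset of 1 (0.0029), Prkcq with median centring (-0.045) and Prkca with array weights (0.036). In bone, median centring gave -0.37 for Prkca, -0.50 for Prkcb, -0.85 for Prkce, -0.19 for Prkcq and -0.021 for Prkcz. Array weights gave -0.13 for Prkca, -0.55 for Prkcb, -0.82 for Prkce and -0.41 for Prkcz. Subtraction of the olfactory receptor level gave -1.50 for Prkcb, -1.16 for Prkce and -0.26 for Prkcz, and with canonical lengths -0.80 for Prkce. Voom on recovered reads gave 0.23 for Prkch and 0.25 for Prkci, and an offset of 1 gave -0.017 for Prkce. Apart from centring, whose construction removes the median shift, the cause was not tested.

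With 1 library left out, the log2 fold change ranged in muscle from -0.082 to 0.059 for Prkca, -3.14 to 0.50 for Prkcb, -0.17 to 0.090 for Prkce, -0.099 to 0.066 for Prkcq and -0.23 to 0.48 for Prkcz, and in bone from -0.33 to 0.82 for Prkcb, -0.65 to 0.35 for Prkce, -0.57 to 0.26 for Prkch, -0.60 to 0.37 for Prkci and 0.10 to 1.46 for Prkcz. The members not named for a tissue kept their sign in these fits, as did Prkcz in bone.

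Of all genes, 510 were called in muscle, against 52 with an offset of 1 and 193 with the filter. In bone 249 were called, against 82 with the filter, 443 with median centring, 1433 with voom and 901 with array weights, and from 115 (without VEH replicate 3) to 1116 (without VEH replicate 2) with 1 library left out. The share of calls higher in BAY was 85.1% in bone, 66.6% with centring and 99.9% with voom, and 54.9% in muscle, 69.9% with voom, and from 37.4% (without BAY replicate 3) and 41.6% (without BAY replicate 1) to 72.3% (without VEH replicate 2) with 1 library left out. Of the pathway genes in muscle, 9 (without VEH replicate 1) to 18 (array weights) had a P under 0.05 and a higher value in BAY, and at most 1 a lower value. With the replicate block, 0 PKC genes were called in either tissue, and 489 genes in muscle and 305 in bone. Depth limits Prkcb in muscle, and reads on olfactory receptor genes limit the levels in bone.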
